A study of Mus musculus with 2 samples.

Results

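Basal and squamous marker genes were examined in mouse pancreatic ductal adenocarcinoma as 8 of the 55361 features of the deposited matrices: Ly6d, Sprr1a, Cst6, Gabrp, Trp63, Pkp1, Tns4 and Mab21l4. They were chosen by symbol, each matched 1 feature in both libraries, and their levels were then read against Krt17, a basal keratin, Epcam, an epithelial adhesion molecule, and Vim, the mesenchymal filament vimentin. The tumours arose in KPFRR mice, which combine Pdx1-Flp with KrasFSF-G12D/+, Trp53frt/frt, Rosa26FSF-creER and Rosa26mTmG, so in both libraries Flp recombinase was driven by the pancreatic Pdx1 promoter. Single live cells were profiled by droplet sequencing of transcript 3′ ends in 1 whole-tumour library and 1 library of cells sorted for high CD9 (CD9hi). The design describes the cells as GFP+, whereas the sorting protocol names GFP or CD9, and the sources used here do not give how many animals contributed. With 1 library in each group no test was possible: all intervals below are 95% intervals that cover counting error only, and none carries a replicate check.

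Squamous differentiation is the programme of stratified epithelia such as epidermis. In textbook form, basal cells express the master regulator p63 (Trp63) and basal keratins, and cells leaving the basal layer make desmosomal plaque proteins, cornified envelope precursors such as the small proline-rich proteins, and the protease inhibitors that control shedding. In human pancreatic cancer, genes of this kind mark the basal-like subtype, which is set against a classical subtype with gastric and ductal genes, and KRT17 is among its usual markers.

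RefSeq promoter windows on build GRCm38.p6 were found for 3 of the 8 genes. They are shown because Sprr1a, Gabrp and Mab21l4 had different patterns in these cells, and because TGANTCA, the recognition sequence of AP-1, is a well-known element of squamous gene promoters. Each window is the 250 bases before the start on the minus strand, at chr3:92485882-92486131 for Sprr1a, chr11:33578958-33579207 for Gabrp and chr1:93160949-93161198 for the more upstream of the 2 listed starts of Mab21l4, with matches to TGANTCA on either strand in capitals.
Sprr1a: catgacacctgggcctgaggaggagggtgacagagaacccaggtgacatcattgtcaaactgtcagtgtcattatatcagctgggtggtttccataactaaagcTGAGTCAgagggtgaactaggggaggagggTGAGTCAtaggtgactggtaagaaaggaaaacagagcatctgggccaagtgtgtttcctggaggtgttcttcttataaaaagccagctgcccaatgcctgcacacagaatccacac
Gabrp: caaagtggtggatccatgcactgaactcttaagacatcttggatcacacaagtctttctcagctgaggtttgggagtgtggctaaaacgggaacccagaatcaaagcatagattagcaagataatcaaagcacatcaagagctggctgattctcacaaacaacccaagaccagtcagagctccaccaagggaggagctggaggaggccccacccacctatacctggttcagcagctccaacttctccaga
Mab21l4: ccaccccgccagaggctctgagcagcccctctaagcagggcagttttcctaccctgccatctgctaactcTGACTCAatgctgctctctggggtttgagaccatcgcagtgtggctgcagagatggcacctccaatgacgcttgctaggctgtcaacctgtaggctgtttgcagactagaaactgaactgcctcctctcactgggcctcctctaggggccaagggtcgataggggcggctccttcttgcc
The Sprr1a window held 2 matches, which ended 140 and 110 bases before the start. The Mab21l4 window held 1, 174 bases before the start, and the window of its other start held none, as did that of Gabrp. Of all 32851 windows of this length, 6.75% held TGANTCA. The recognition element of the p53 family was in 7.13% of windows and in none of these. The matches are descriptions of letters, and binding was not measured.

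Cells entered the analysis with 500 or more genes, 1000 or more UMIs and no more than 20% of UMIs from mitochondrial genes. This left 2550 whole-tumour cells with 46270361 UMIs and 5092 CD9hi cells with 119632120 UMIs. Only 2 kept barcode sequences were shared by the libraries. The median depth was 17686 UMIs in the whole tumour and 21791.5 in CD9hi, so detection is also given after thinning every cell to 5000 UMIs. Cells with Malat1, a nuclear RNA, under 1000 CPM numbered 216 in the whole tumour and 613 in CD9hi. CPM denotes UMIs of a gene in each 1 M UMIs of the cells summed. From whole tumour to CD9hi, the sum of 7 acinar marker genes went from 39115 to 142 CPM, Vim from 1139 to 4862 CPM and Epcam from 1925 to 1052 CPM. Cells were also grouped into 25 clusters without the 8 genes, Krt17 or the other listed basal and cornified genes, and the clusters are named here by number and leading genes.

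Trp63, the gene of the master regulator p63, was all but undetected. There were 4 Trp63 UMIs in 3 whole-tumour cells and 3 UMIs in 3 CD9hi cells, or 0.086 CPM (0.024 to 0.22) and 0.025 CPM (0.0052 to 0.073). After thinning, Trp63 was seen in 0 of 2385 and 0 of 4978 cells, which allows at most 0.155% and 0.0741% of cells with a UMI. Several other genes that define squamous epithelium had few or no UMIs. Krt5, the keratin partner of Krt14 in basal cells, had 1 UMI in each library, Krt15 had 8 and 23, and Sprr3, Flg and Dsg1a had 0 in both. Krt6a had 37 and 267 UMIs. Krt14 had 6.81 CPM among whole-tumour and 8.09 CPM among CD9hi cells, and Ivl, which encodes the envelope precursor involucrin, had 10.8 and 19.2 CPM. Of the squamous keratinocyte markers Krt5, Krt14, Krt6a, Dsg3, Trp63 and Ivl, the summed level was 20.2 (whole tumour) and 30.5 CPM (CD9hi). That sum was highest in cluster 12, at 179 CPM, where 1 of the 6 markers passed the rule used to name clusters. No cluster met that rule for squamous keratinocytes, so the genes are described here by name, without calling the cells squamous.

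The other 7 genes were measured at a mean of 5 CPM or more and split between the libraries. Sprr1a, Cst6, Pkp1, Tns4 and Mab21l4 were at least 1.5-fold higher in CD9hi, against 17.1% of the 9760 genes measured. Ly6d and Gabrp were at least 1.5-fold lower, against 13.4%. The median log2 ratio of CD9hi over whole tumour was 1.05 for the 7 genes and 0.13 for all measured genes. Krt17 went with the second group: it fell from 68.1 CPM (65.8 to 70.6) to 14.6 CPM (13.9 to 15.3).

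**Figure D1:**
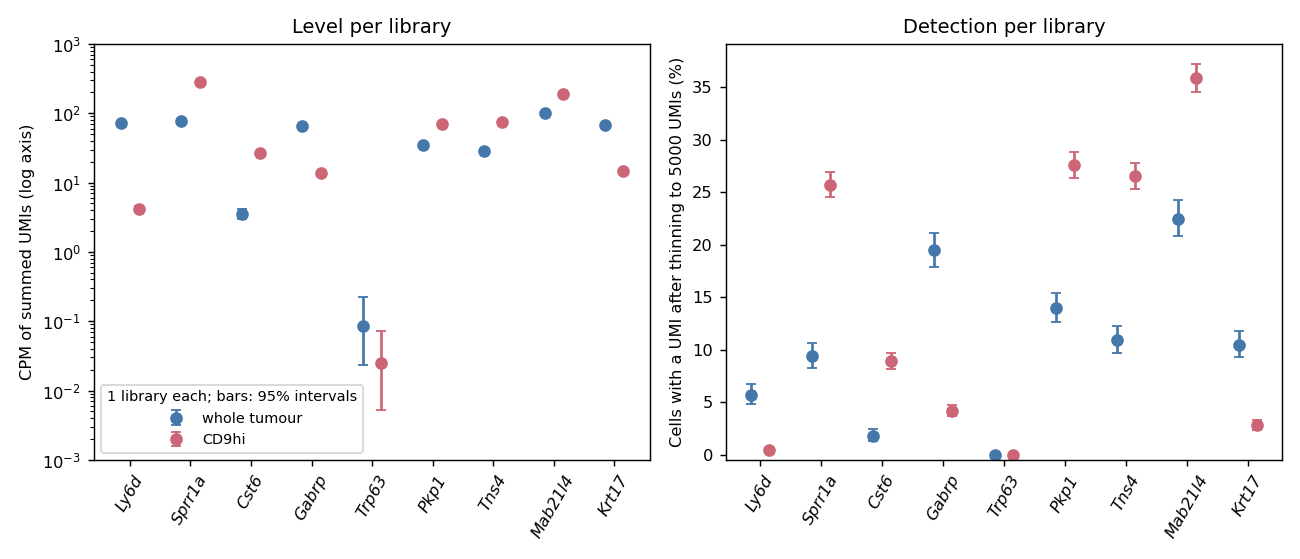
CPM of summed UMIs on a log axis (left) and the percentage of cells with a UMI after thinning to 5000 UMIs (right) for the 8 genes and Krt17 in each library, with 95% counting intervals. Sprr1a, Cst6, Pkp1, Tns4 and Mab21l4 sit higher in CD9hi, Ly6d, Gabrp and Krt17 sit lower, and Trp63 lies near 0 in both.

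Among cornified-layer and surface genes, Sprr1a, a cross-linked precursor of the cornified envelope, went from 78.6 CPM (76.1 to 81.2) in the whole tumour to 286.5 CPM (283.5 to 289.6) in CD9hi, a log2 ratio of 1.87 (1.82 to 1.92). It was detected in 13.7% and 37.3% of cells, and in 9.35% and 25.7% after thinning. Ly6d, a GPI-anchored surface protein of differentiating keratinocytes and of early B cells, went the other way, from 71.7 CPM (69.3 to 74.2) to 4.22 CPM (3.86 to 4.61), a log2 ratio of -4.09 (-4.22 to -3.95). Its detection went from 10.3% to 0.943% of cells. Ly6d was held by few cells: the top 1% of cells carried 67.9% of its whole-tumour UMIs, and 1 cell had 279. The 4 listed B cell genes summed to 1.68 and 0.37 CPM in the same order, and their part in the Ly6d level was not tested.

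Cst6, cystatin M/E, a cysteine protease inhibitor of the cornifying epidermis, went from 3.54 CPM (3.02 to 4.13) in the whole tumour to 27.0 CPM (26.1 to 27.9) in CD9hi, a log2 ratio of 2.92 (2.70 to 3.16). Its detection after thinning was 1.80% against 8.90%. Without the cells of low Malat1 the levels were 3.71 and 18.2 CPM, a log2 ratio of 2.29 in the same direction. The part of such cells in this result was not tested further.

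Gabrp, the pi subunit of the GABA type A receptor, which is expressed in several epithelia, went from 66.2 CPM (63.9 to 68.6) in the whole tumour to 13.5 CPM (12.9 to 14.2) in CD9hi. The log2 ratio was -2.29 (-2.38 to -2.20), and detection was 31.0% against 8.52% of cells. Unlike Ly6d, Gabrp was spread over many cells at low counts, with at most 26 UMIs in a whole-tumour cell and 13.9% of its UMIs in the top 1% of cells.

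Pkp1, Tns4 and Mab21l4 were all higher in CD9hi. Pkp1, plakophilin 1 of the desmosomal plaque, went from 34.4 CPM (32.7 to 36.1) in the whole tumour to 71.1 CPM (69.6 to 72.7) in CD9hi. Tns4, a short tensin that binds integrin tails at focal adhesions, was at 28.5 CPM (27.0 to 30.1) and 74.1 CPM (72.6 to 75.7). Mab21l4, a gene linked to keratinocyte differentiation, was at 99.6 CPM (96.8 to 102.5) and 189.7 CPM (187.2 to 192.2). The log2 ratios were 1.05, 1.38 and 0.93. After thinning, Pkp1 was detected in 14.0% and 27.6% of cells, Tns4 in 10.9% and 26.5%, and Mab21l4 in 22.5% and 35.9%.

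As a background, detection was read in cells that should lack the genes. In the acinar-like cluster 11 of the whole tumour, with 218 cells at a median of 14727 UMIs, thinned detection of the 8 genes ran from 0% to 1.46%. Whole-tumour Cst6, at 1.80% of thinned cells, is little above its 0.488% there. In the 9 macrophage-like cells of the whole tumour, 6 of which could be thinned, Cst6 was at 16.7% after thinning. Before thinning, Cst6 was in 33.3% (7.49 to 70.1) and Ly6d in 11.1% of the 9 cells. So few cells cannot set a background, and whether whole-tumour detection of Cst6 lies above it was not settled. The 29 macrophage-like cells of CD9hi, at a median of 14758 UMIs, gave wider values: 24 could be thinned, and 8.33% of these had Sprr1a, 12.5% Tns4, 8.33% Mab21l4, 4.17% Pkp1 and 4.17% Cst6, so part of the CD9hi detection lies within what such cells show. Gabrp and Ly6d were at 0% there.

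The clusters show where the counts were. Ly6d was concentrated in cluster 12, led by Mucl3, Tff1, Muc5ac, Gkn1 and Gkn2, genes of gastric surface mucous cells. Its 153 cells from the whole tumour carried 81.3% of that library's Ly6d UMIs, and its 47 cells from CD9hi carried 84.8%. Ly6d stood there at 837 and 392 CPM, and was detected in 51.6% and 36.2% of them. The next whole-tumour cluster, cluster 6, was at 47.2 CPM. Most Ly6d UMIs were thus in cells grouped by gastric-type classical genes.

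Sprr1a was high both in cluster 12 and in clusters 8 and 16. Cluster 12 was at 391 CPM in the whole tumour, with 34.7% of that library's Sprr1a UMIs, and at 901 CPM in CD9hi, where 78.7% of its 47 cells had a UMI. In CD9hi, cluster 8, led by Nrn1, Ifitm1, Slc14a1 and Sema3d and holding 374 of its 377 cells in that library, was at 1019 CPM with Sprr1a in 71.9% of cells. Cluster 0, the largest, held 31.5% of the CD9hi Sprr1a UMIs at 324 CPM. Cluster 16, with 123 CD9hi cells and leading features such as Gm43123 and 7SK, was at 937 CPM. Cluster 12 lay at the epithelial end of the cluster order and clusters 8 and 16 at the mesenchymal end.

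Cst6 was shared by cluster 8, at 91.8 CPM in CD9hi, and by 3 clusters of low Malat1: cluster 3 at 104 CPM with 475 CD9hi cells, and clusters 18 and 19, whose pooled levels were 107 and 91.0 CPM. Cluster 3 held 33.4% and cluster 8 28.7% of the CD9hi Cst6 UMIs. Gabrp was highest in cluster 2, led by Krt17, Gabrp and Ddit4l, with 150 CPM over the 597 cells from the whole tumour and 192 CPM over the 72 from CD9hi, followed by cluster 6, led by Chil4, Wfdc18 and Olfm4, at 111 CPM in the whole tumour.

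Mab21l4 was highest in cluster 4, led by Il1a, Mab21l4, Inhba, Aldh1a3, Csf2 and Jag1. This cluster of 450 CD9hi and 13 whole-tumour cells had Mab21l4 at 657 CPM in CD9hi, where 94.2% of cells had a UMI. Pkp1 was also at its highest there, at 146 CPM with 88.2% of cells. Tns4 was at 130 CPM in cluster 4, below its 183 CPM in cluster 7 and 177 CPM in cluster 1, all in CD9hi. Cluster 7 was led by Gzme and Tnip3, and cluster 1 by Prl, S100a14 and Lama3. The values of clusters 7 and 1 for Tns4 overlapped within counting error.

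**Figure D2:**
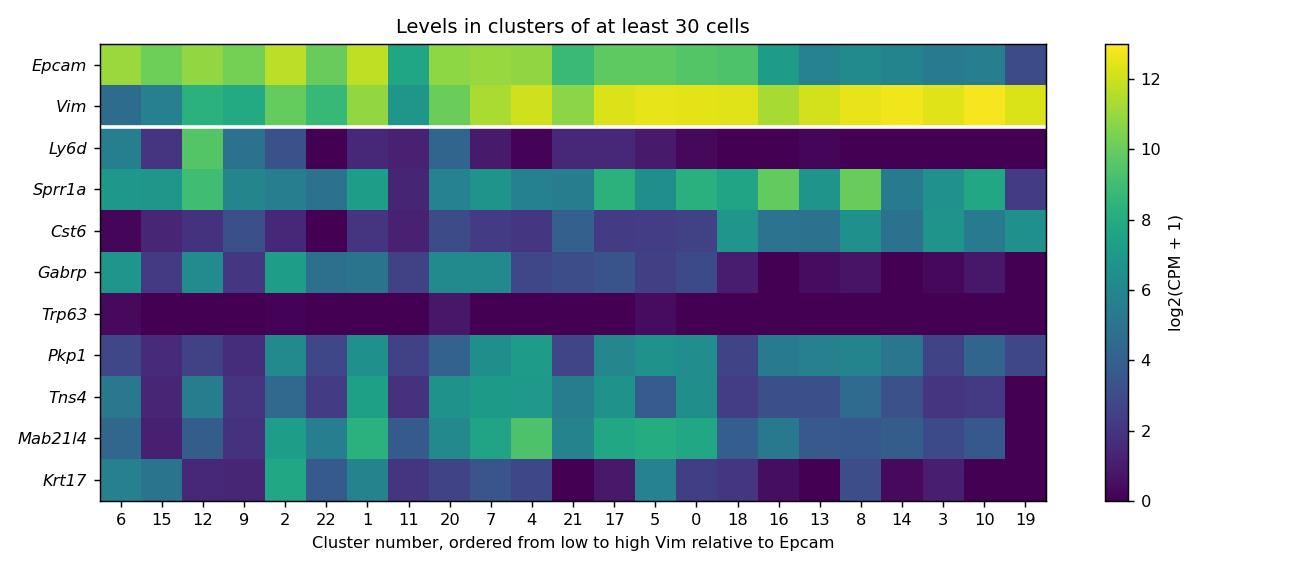
log2(CPM + 1) of Epcam, Vim, the 8 genes and Krt17 in the 23 clusters of at least 30 cells, both libraries pooled, ordered from low to high Vim relative to Epcam. Ly6d is brightest in cluster 12, Sprr1a in clusters 8 and 16, Mab21l4 in cluster 4 and Krt17 in cluster 2, and the Trp63 line is dark throughout.

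Over these 23 clusters, which share 2 libraries and differ in depth, the levels of Mab21l4 and Tns4 had a Pearson correlation of 0.82, Mab21l4 and Pkp1 of 0.77, and Pkp1 and Tns4 of 0.61, on log2(CPM + 1). Gabrp ran with Epcam at 0.82 and with Krt17 at 0.64. Cst6 ran against Epcam at -0.76 and against Gabrp at -0.77. Ly6d ran against Vim at -0.62. The genes most alike in pattern were Eps8l3, Tmem45b and Lrrc26 for Ly6d (0.93, 0.92 and 0.92), Podxl, Adgrg6 and Mtor for Sprr1a (0.84, 0.84 and 0.83), and Slc14a1, Gchfr and Eno3 for Cst6 (0.91, 0.88 and 0.87). For Gabrp they were Kcne3, Gm43305 and Grb7 (0.92, 0.91 and 0.90), and for Mab21l4 they included Trpm6 and Csf2 (0.91 and 0.89). For Pkp1 they were P4ha2, Tiam2 and Zfpm2, all at 0.92, and for Tns4 Gm34425, Epha4 and Aldh1a3 (0.89, 0.88 and 0.88). All are descriptions of these clusters.

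Which of the genes shared cells with Krt17 was asked first with Krt17-high cells, at 1000 CPM of Krt17 or more. There were 50 in the whole tumour, 1.96% of cells, and 27 in CD9hi, 0.530%. A further 58 and 14 cells lay between 500 and 1000 CPM, and 33 and 20 of the high cells lay under 2000 CPM, so the class is a range. Of the 50, 36 lay in cluster 2, and 4 of the 27. Krt17-high cells had a higher median Epcam than the rest, 3476 against 1647 CPM in the whole tumour and 5368 against 488 CPM in CD9hi. Their summed acinar markers were lower in the whole tumour, at 727 against 39778 CPM.

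In whole-tumour Krt17-high cells, Gabrp was at 151.5 CPM against 64.7 CPM in the other cells, a log2 ratio of 1.23 (0.95 to 1.49), and Pkp1 at 64.9 against 33.9 CPM, a ratio of 0.95 (0.51 to 1.34). Ly6d was at 20.4 against 72.6 CPM, a ratio of -1.79 (-2.64 to -1.13), and Tns4 at 15.3 against 28.7 CPM, a ratio of -0.85 (-1.87 to -0.10). Sprr1a, at 62.4 against 78.9 CPM, and Mab21l4, at 107 against 99.5 CPM, did not differ beyond counting error. Of the 6 genes measured in this library, 2 were at least 1.5-fold higher and 2 at least 1.5-fold lower, against 14.8% and 10.5% of all genes. Cst6 had 0 UMIs in these 50 cells and 3.61 CPM elsewhere, a difference that was not detectable at this depth.

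In CD9hi Krt17-high cells, Pkp1 was at 118 against 70.9 CPM (log2 ratio 0.74) and Mab21l4 at 309 against 189 CPM (0.71). Sprr1a was lower, at 152 against 287 CPM (-0.91). Cst6 had 0 UMIs, against 27.1 CPM in the other cells, and was at least 4.76-fold lower with a floor of 3 counts over the 27 cells. Gabrp was at 60.7 against 13.3 CPM, but 29 of its 32 UMIs lay in 1 cell. Without that cell it was at 5.97 CPM, a log2 ratio of -0.94 that rests on the few UMIs left. Gabrp, Pkp1 and Mab21l4 made 3 of 6 measured genes at least 1.5-fold higher, and Sprr1a and Cst6 made 2 lower, against 16.4% and 16.8% of all genes. Without the cell of most UMIs for each gene only Pkp1 stayed 1.5-fold higher, and Mab21l4 was at 278 CPM.

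A wider comparison set the cells with any Krt17 UMI, 369 in the whole tumour and 278 in CD9hi, against cells with none. In the whole tumour Gabrp was at 119 against 56.9 CPM (log2 ratio 1.07, 0.95 to 1.18), Pkp1 at 61.4 against 29.7 (1.05, 0.88 to 1.21), and Mab21l4 at 129 against 94.4 (0.46, 0.35 to 0.56). Ly6d was at 12.1 against 82.0 CPM, a ratio of -2.75 (-3.09 to -2.44). Gabrp and Pkp1 were thus at least 1.5-fold higher and Ly6d lower, against 7.29% and 5.56% of all genes. Summed acinar markers moved with this split as well, at 7656 against 44575 CPM.

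In CD9hi Gabrp was at 37.7 against 12.2 CPM (1.63, 1.43 to 1.83) and Mab21l4 at 292 against 184 CPM (0.67, 0.60 to 0.73), against 7.24% of all genes at least 1.5-fold higher. Cst6 was at 4.99 against 28.2 CPM, a ratio of -2.48 (-3.05 to -2.00), against 6.68% of genes at least 1.5-fold lower. Pkp1 and Tns4, at 0.55 and 0.53, and Sprr1a, at -0.56, fell short of 1.5-fold. Cells of low Malat1 made up 0.360% of the Krt17-positive and 12.7% of the Krt17-negative cells.

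Within Epcam-high cells, at 1000 CPM of Epcam or more, the whole-tumour pattern held and the CD9hi pattern did not. In the whole tumour, Pkp1 was at 63.9 against 33.2 CPM (log2 ratio 0.94) and Gabrp at 130 against 78.8 CPM (0.72) by any Krt17 UMI. Ly6d (-2.99), Sprr1a (-1.15) and Tns4 (-0.59) were at least 1.5-fold lower, against 4.43% of genes higher and 6.53% lower. In CD9hi, by contrast, Gabrp was at 44.3 against 35.4 CPM (0.33), Pkp1 at 100.1 against 105.3 (-0.07), Tns4 at 121 against 149.7 (-0.31) and Mab21l4 at 306 against 343 (-0.16). None of the 6 measured genes reached 1.5-fold there, against 2.68% of genes higher and 2.34% lower. Ly6d, under the level counted as measured, was at 2.99 against 13.03 CPM. Its level was thus over 1.5-fold lower with Krt17 among Epcam-high cells of both libraries. Over all kept cells its detection did not fall steadily with Krt17. In CD9hi it was 0.831% without Krt17 and 7.41% (0.910 to 24.3) in Krt17-high cells, or 0.383% and 0% after thinning. Those Krt17-high cells had 2 Ly6d UMIs, a log2 ratio of 0.17. Whole-tumour detection was 10.5% without Krt17, 6.04% at 200 to under 1000 CPM and 12.0% (4.53 to 24.3) in Krt17-high cells. The difference between the libraries was not tested.

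**Figure D3:**
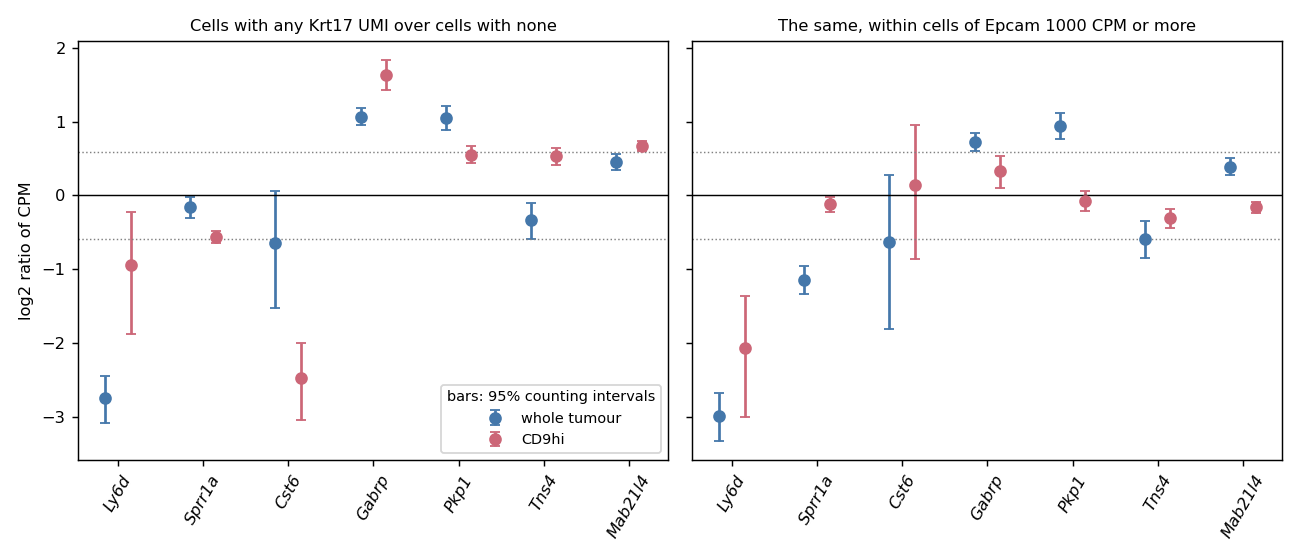
log2 ratio of CPM in cells with any Krt17 UMI over cells with none, for all kept cells (left) and for cells with Epcam at 1000 CPM or more (right), with 95% counting intervals and dotted lines at 1.5-fold. Gabrp and Pkp1 stay above the upper line in the whole tumour in both panels, whereas in CD9hi no gene is above it in the right panel, and Ly6d is negative throughout.

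Within cluster 2 of the whole tumour, where 75.4% of that library's Krt17 UMIs lay, the 217 cells with and 380 cells without a Krt17 UMI had similar levels. Gabrp was at 163 against 141 CPM (0.21, 0.06 to 0.36), Pkp1 at 75.1 against 63.4 CPM (0.24, 0.02 to 0.46) and Mab21l4 at 147 against 142 CPM (0.05, -0.10 to 0.20). The ratios of Gabrp and Pkp1 were smaller here than over all whole-tumour cells, at 1.07 and 1.05. Over the clusters, the correlation with Krt17 was 0.64 for Gabrp but 0.24 for Pkp1. No such split is given here for other clusters.

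Sharing was also read per pair, as detection in the same thinned cell. In 2385 whole-tumour cells, Gabrp and Krt17 were found together in 79 cells where 48.6 are given by independent detection, a ratio of 1.62. Krt17 had ratios of 1.69 with Pkp1 and 1.62 with Mab21l4, but 0.877 with Tns4, 0.642 with Sprr1a and 0.561 with Ly6d, and 0 cells had both Krt17 and Cst6 where independence gives 4.51. Ly6d and Sprr1a shared 36 cells against 12.7, a ratio of 2.83, while Ly6d shared 5 cells with Pkp1 against 19.0 and 8 with Mab21l4 against 30.6. Pkp1 and Mab21l4 shared 140 cells against 74.8.

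In 4978 thinned CD9hi cells, Krt17 and Mab21l4 shared 85 cells against 50.3, a ratio of 1.69, and Krt17 and Gabrp 11 against 5.85. For both libraries independence was taken over all thinned cells, whatever their Epcam. Among Epcam-high CD9hi cells, the levels of Mab21l4 and Gabrp differed by less than 1.5-fold with Krt17, as given above. Tns4 and Mab21l4 had a ratio of 1.5 and Pkp1 and Mab21l4 of 1.48. Cst6 was set apart from these, sharing 29 cells with Mab21l4 where independence gives 159, a ratio of 0.182, with a ratio of 0.162 for Tns4. After thinning, 5 whole-tumour and 71 CD9hi cells had a UMI of 4 of the 8 genes, 1 cell in each library had 5, and none had more. No number from independent detection is given for these counts, and they depend on depth. Before thinning, CD9hi detection was 61.1% for Pkp1, 52.8% for Mab21l4, 49.8% for Tns4 and 37.3% for Sprr1a. The counts therefore do not show how many cells expressed several of the genes.

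Across bins of Epcam, under 250 CPM (low), up to 1000 CPM (middle) and from 1000 CPM (high), CD9hi cells gave the clearer order. From low to high Epcam, Gabrp went from 0.592 to 36.5 CPM (log2 ratio 5.92), Tns4 from 14.8 to 146 (3.30), Mab21l4 from 43.9 to 339 (2.95) and Pkp1 from 37.5 to 105 (1.48). These were 4 of 6 measured genes at least 1.5-fold higher in Epcam-high cells, against 20.2% of all genes. Cst6 went from 56.0 to 2.62 CPM (-4.41) and Sprr1a from 362 to 196 CPM (-0.89), against 12.3% of genes at least 1.5-fold lower. The 2067 Epcam-low cells of CD9hi held 588 cells of low Malat1. Without low-Malat1 cells Cst6 was at 41.2 CPM in Epcam-low and 2.47 CPM in Epcam-high cells.

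Among whole-tumour cells 5 of 6 genes were at least 1.5-fold higher in Epcam-high cells, but so were 74.9% of all genes, whose median log2 ratio was 0.88. None was at least 1.5-fold lower, against 2.73% of all genes, as Cst6 (-1.47) was under the level counted as measured. The Epcam-low bin held 203419 CPM of summed acinar markers against 6423 CPM in the high bin, and 48.4% of its 347 cells were low in Malat1. Clusters 11, 14, 15, 21 and 22, set aside for acinar, islet, macrophage, fibroblast or pericyte markers, were then left out. Cluster 9, with 267 whole-tumour cells at 36561 CPM of summed acinar markers, stayed in, as did cluster 24 with tuft cell markers. Without the clusters set aside, Ly6d (5.23), Gabrp (3.06) and Tns4 (1.65) remained at least 1.5-fold higher in Epcam-high cells. Pkp1 was at 0.31 (-0.01 to 0.65), and Mab21l4 turned to -0.52, with 111 CPM in Epcam-high against 160 CPM in Epcam-low cells. Sprr1a turned to -1.07, at 79.7 against 168 CPM.

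Bins of Vim, under 1000 CPM (low), up to 4000 CPM (middle) and from 4000 CPM (high), separated the genes further. Whole-tumour Vim-high over Vim-low cells had Mab21l4 at 230 against 57.8 CPM (2.00) and Pkp1 at 68.5 against 22.1 CPM (1.63), while Ly6d was at 3.42 against 96.7 CPM (-4.78) and Gabrp at 9.67 against 78.9 CPM (-3.01). Mab21l4 and Pkp1 were 2 of 6 genes at least 1.5-fold higher, against 19.0% of all genes, and Ly6d and Gabrp were lower, against 16.6%. Sprr1a stood at 84.6 and 84.7 CPM. The Vim-low bin of the whole tumour held 53051 CPM of acinar markers against 917 CPM in the Vim-high bin, and the part of those cells in these ratios was not tested.

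In CD9hi the same bins gave Cst6 at 33.4 in Vim-high against 4.93 CPM in Vim-low cells (2.75), the only 1 of 6 measured genes at least 1.5-fold higher, against 9.14% of all genes. Gabrp was at 4.31 against 52.98 CPM (-3.62) and Tns4 at 55.3 against 151 CPM (-1.45), against 13.4% of genes at least 1.5-fold lower. Mab21l4 (-0.39), Pkp1 (-0.27) and Sprr1a (0.23) moved less than 1.5-fold. Ly6d was at 0.098 against 42.7 CPM. Mab21l4 thus went with Vim in the whole tumour and slightly against it in CD9hi. The difference was not tested.

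Read by both bins at once, Mab21l4 peaked where both markers were present. In CD9hi it was at 406 CPM in Epcam-high, Vim-middle and 342 CPM in Epcam-high, Vim-high cells, against 233 CPM in Epcam-high, Vim-low and 46.6 CPM in Epcam-low, Vim-high cells. Its whole-tumour level was 287 CPM in Epcam-high, Vim-high cells and 73.7 CPM in Epcam-high, Vim-low cells. Cst6 was highest in CD9hi cells of low Epcam and high Vim, at 59.6 CPM, and Ly6d in cells of low Vim, with 2868 of its 3318 whole-tumour UMIs in the Epcam-high, Vim-low cells at 110 CPM. Gabrp was highest in the same bin of the whole tumour, at 97.9 CPM.

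**Figure D4:**
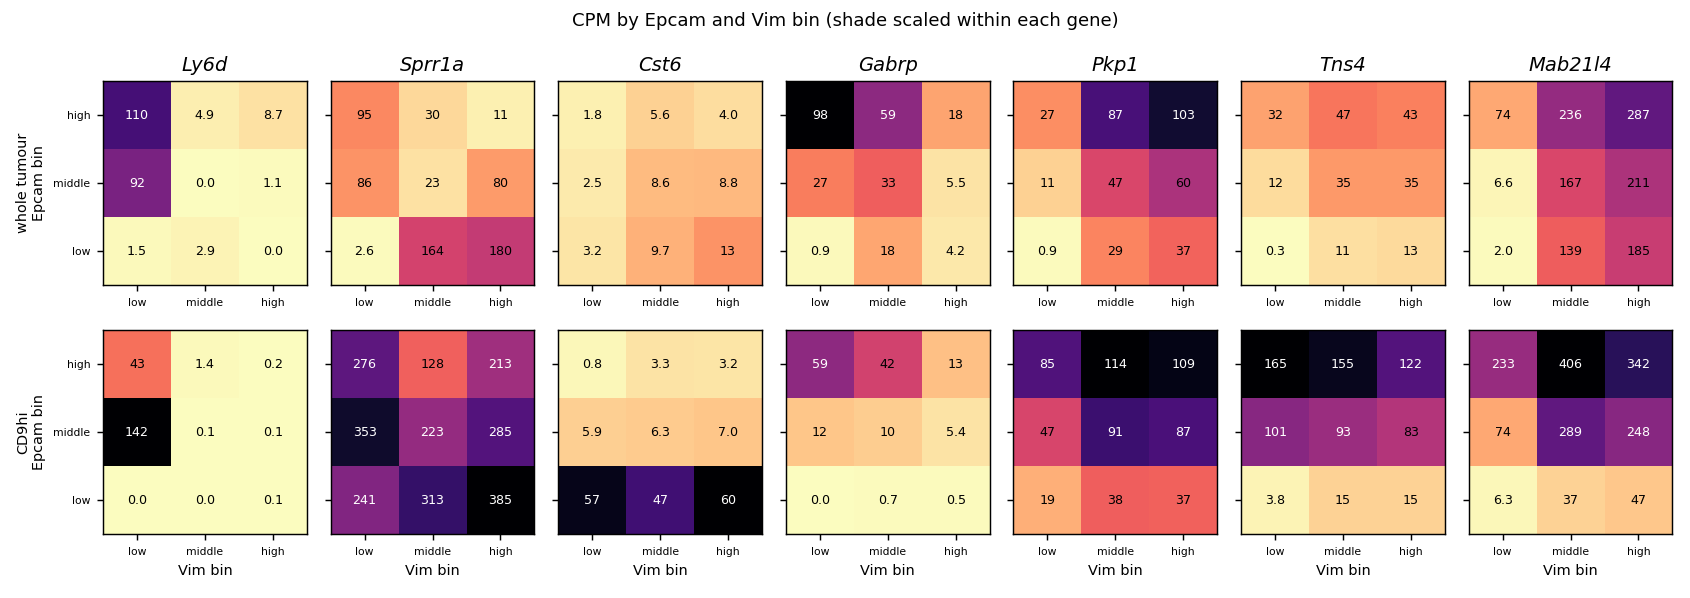
CPM of 7 genes in the 9 combinations of Epcam bin (vertical) and Vim bin (horizontal) in each library, with the value printed in each square and the shade scaled within each gene over both libraries. Ly6d and Gabrp are darkest at low Vim, Cst6 at low Epcam in CD9hi, and Mab21l4 at high Epcam with middle or high Vim.

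Library differences within a cluster could be read in clusters 0, 1, 5 and 7, which had at least 100 cells of each library. Cluster 0 was led by Npy, Timp3 and Tnfaip6 and cluster 5 by Xirp2, Lox and Ltbp2. Sprr1a was higher in CD9hi in all 4, from 128 to 324, 17.4 to 182, 14.6 to 117 and 29.2 to 162 CPM, log2 ratios of 1.34, 3.38, 2.99 and 2.47. Tns4 was at least 1.5-fold higher in all 4 as well, with log2 ratios of 1.37, 0.63, 1.30 and 1.35. At least 1.5-fold higher were 11.1%, 9.11%, 9.36% and 15.3% of all genes in these clusters.

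Mab21l4 differed little within the same clusters, at 232 and 223 CPM in cluster 0 (-0.06, -0.17 to 0.06), 265 and 329 in cluster 1 (0.31, 0.20 to 0.43), 249.9 and 266 in cluster 5 (0.09, -0.05 to 0.23) and 191 and 188 in cluster 7 (-0.02, -0.17 to 0.12) in the whole tumour and CD9hi. Its pooled ratio of 0.93 was larger than each of these. Cst6, which had a pooled ratio of 2.92, was at 4.45 in CD9hi against 8.79 CPM in the whole tumour in cluster 0 (-1.01, -1.60 to -0.31). In clusters 1, 5 and 7 it was under the level counted as measured, with -1.11, -0.26 (-1.30 to 0.95) and -1.45 from 15, 11 and 22 whole-tumour UMIs. At least 1.5-fold lower were 5.93%, 7.91%, 5.42% and 6.04% of all genes. Pkp1 had 0.94, 0.50, 0.15 and 0.85. Clusters 0, 1, 5 and 7 held only 4.59%, 1.15%, 0.775% and 0.341% of the CD9hi Cst6 UMIs. Clusters 3 and 8, with 33.4% and 28.7% of them, had 0 and 3 whole-tumour cells and could not be compared.

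**Figure D5:**
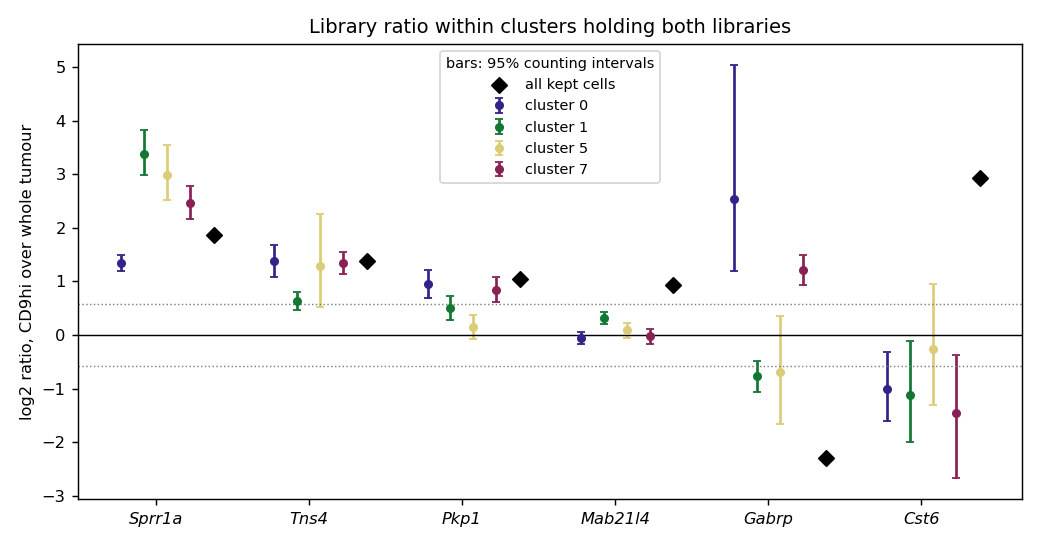
log2 ratio of CD9hi over whole tumour for 6 genes within clusters 0, 1, 5 and 7 (points with 95% counting intervals) and over all kept cells (black diamonds), with dotted lines at 1.5-fold. Sprr1a and Tns4 are above the upper line in all 4 clusters, Mab21l4 lies near 0, and Cst6 lies below 0 in each cluster, with an interval that spans 0 in cluster 5, although its diamond is at 2.92. The clusters with the most CD9hi Cst6 UMIs, 3 and 8, had 0 and 3 whole-tumour cells and are not shown.

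Among the squamous and subtype lists, the cornified envelope and human basal-like lists were mostly under 5 CPM. The basal keratinocyte, desmosome and classical lists were mostly at or above it. Of 13 basal keratinocyte genes 7 were measured in the comparison of libraries, with 2 at least 1.5-fold higher in CD9hi and 2 lower and a median log2 ratio of 0.25. Of 24 cornified envelope and suprabasal genes, 23 had a row and 4 were measured, with 1 higher and 1 lower (median -0.17). Of 13 desmosome genes 8 were measured, 0 higher and 4 lower (-0.68), and of 17 mouse orthologues of human basal-like genes 5, with 2 higher and 2 lower (0.44). Of 15 classical genes 14 were measured, 0 higher and 12 lower (-2.77). The median of all genes was 0.13.

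In Krt17-high cells of the whole tumour, where 14.8% of all genes were at least 1.5-fold higher and 10.5% lower, 3 of 6 measured basal keratinocyte genes were higher and 0 lower, 2 of 4 cornified genes higher and 1 lower, and 3 of 9 desmosome genes higher and 1 lower. The human basal-like orthologues had 2 higher and 2 lower of 5, with a median of -0.10. Krt14 (1.85) and Krt16 (1.69), keratins of basal and activated epidermis, Evpl (1.20), which encodes envoplakin, and Sfn (0.86), the epithelial 14-3-3 protein, were higher on the log2 scale, while Ivl (-1.78), Areg (-1.32), the EGF family ligand amphiregulin, and Ppl (-1.10), which encodes periplakin, were lower. Classical genes were lower, among them Tff1 (-5.98), Cldn18 (-4.29) and Tff2 (-3.62), with 10 of 14 at least 1.5-fold lower and 1 higher. In CD9hi Krt17-high cells, 6 of 7 measured desmosome genes were at least 1.5-fold higher and 1 lower, against 16.4% and 16.8% of all genes, with Pkp3 at 2.41 and Dsg2 at 1.69. By any Krt17 UMI within Epcam-high cells, 1 of these 7 was higher and 0 lower, against 2.68% and 2.34% of all genes. Krt17-high cells of CD9hi had 3 of 6 measured basal keratinocyte genes at least 1.5-fold higher and 1 lower. Lamb3 (1.94), Sfn (1.56) and Krt7 (1.57) were higher in them, and Krt14 was lower (-0.77). Within Epcam-high cells by any Krt17 UMI, 1 of these 6 basal keratinocyte genes was higher and 0 lower. There 0 of 4 human basal-like orthologues were at least 1.5-fold higher. Classical genes split in the Krt17-high cells, with 5 of 12 higher, among them Krt19 (2.15), and 5 lower, among them Tff2 (-5.94), Agr2 (-4.36) and Cldn18 (-4.16). By any Krt17 UMI within Epcam-high cells, 1 of the 12 was higher and 4 were lower.

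Ranked by ratio among the 2658 whole-tumour genes of at least 50 CPM, the leading genes of Krt17-high cells were Cxcl2 (2.30), Gzme (2.10), Tnc (1.39), Tspan6 (1.37), Sox11 (1.33), Creb5 (1.30), Gabrp (1.23), Tpm2 (1.21), Csrp1 (1.20) and Slco2a1 (1.18). Gabrp ranked 7 and was the member nearest the top, while Mab21l4 ranked 1479, Sprr1a 2423 and Ly6d 2588. In CD9hi they were Lama3 (2.46), S100a14 (2.35), Krt19 (2.15), Epcam (2.08), Prss22 (1.98), Lamb3 (1.94), Cldn4 (1.84), Sox11 (1.72), Tnc (1.71) and Fxyd3 (1.69) of 2917 genes. There Pkp1 ranked 117, Mab21l4 131, Tns4 216 and Sprr1a 2807. Sox11 and Tnc were on both lists of 10.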

How the data were processed

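The deposited values were raw UMI counts for each gene and cell barcode, with no normalization, per the file headers. The submitters' processing notes name GRCm39 and Cell Ranger 7.0.0, and the matrix headers name version 6.1.2. Counting of intronic reads is not stated in these sources. The 8 genes, the other gene lists and the comparisons were chosen with earlier results of these data known.

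Filters kept 2550 of 3082 whole-tumour and 5092 of 5500 CD9hi barcodes. CPM is the summed count of a gene over the summed count of all genes in the same cells, per 1 M. Log2 ratios add 0.5 counts to each sum. Intervals are exact Poisson (CPM), Clopper-Pearson (shares) or conditional binomial (ratios). Genes at a mean of 5 CPM or more counted as measured, and 1.5-fold is a rule of size. Doublets were kept, except in 1 alternative that left out the 63 and 224 highest Scrublet scores (0.8% per 1000 barcodes), because the automatic threshold marked 0.549% and 0.0196% of cells. Clusters came from scanpy 1.11.5 on log counts per 10000, with 2000 variable genes, 30 principal components (scikit-learn 1.9.0), 15 neighbours and Leiden (leidenalg 0.10.2) at resolution 0.8, without integration of the libraries. A cell type name needed at least 3 markers passing 50 CPM, 25% of cells and 10% of the highest cluster, and no fewer passing than failing, a rule set after the clusters were seen. The script of ratios was tested on simulated data.

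Named genes were the 8 genes with Krt17, Epcam and Vim, up to 4 genes of each list with the largest Krt17-high ratio, the 10 leading genes of Krt17-high cells at 50 CPM or more, and the 3 genes most alike to each of the 8 over clusters, of which 1 is not reported here. Alternatives were other cuts of Krt17, thinning, stricter filters, and leaving out doublets, low-Malat1 cells or clusters of other cell types. The clusters left out for other cell types were 11, 14, 15, 21 and 22, so cluster 9 with its acinar markers stayed in.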

Additional observations from a re-analysis of the deposited data

Results flagged for a closer look

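Gabrp differed between the libraries in opposite directions in different clusters. Its log2 ratio of CD9hi over whole tumour was 2.54 in cluster 0 (7.12 against 1.05 CPM, the latter from 3 UMIs, interval 1.19 to 5.04) and 1.21 in cluster 7 (92.0 against 39.7 CPM), but -0.77 in cluster 1 (27.9 against 47.5 CPM). In cluster 5 it was -0.69 (3.93 against 6.26 CPM, interval -1.65 to 0.36). Its mean over the libraries in cluster 0 lay under the 5 CPM counted as measured. The pooled ratio was -2.29. The difference between clusters was not tested.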

How the results depend on the processing

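Of 86 counts of genes recomputed under alternative settings, 77 stayed within 1.5 times the reported count. In the whole tumour, 1 gene was at least 1.5-fold higher in Krt17-high cells after thinning, in place of 2, and 1 was lower, in place of 2, with the top 10% of cells by Krt17 or with any Krt17 UMI. Genes higher in Epcam-high cells numbered 3, in place of 5, after thinning, without cells of low Malat1, or without clusters of other cell types. In CD9hi, genes higher in Krt17-high cells numbered 0 among Epcam-high cells and 1 without the cell holding most UMIs of each gene, in place of 3, and 1 was lower with any Krt17 UMI, in place of 2. The other alternatives were doublet removal, no filter or a stricter filter on barcodes, Krt17 at 500 or 2000 CPM, and terciles of Epcam or Vim. Of 348 single ratios recomputed, 331 kept their sign, 316 kept their side of the 1.5-fold limit and 100 moved outside their counting interval without reversal. The 6 that had been at least 1.5-fold and changed sign follow. Gabrp in CD9hi Krt17-high cells was -1.78 at 2000 CPM of Krt17, -2.41 among Epcam-high cells and -0.94 without the cell of most UMIs, and Mab21l4 was -0.059 among Epcam-high cells. Mab21l4 in Epcam-high over Epcam-low cells of the whole tumour was -0.52 without clusters of other cell types and -0.29 without cells of low Malat1. The comparison by any Krt17 UMI and that without the cell of most UMIs were chosen after seeing the data. The top 10% by Krt17 was not run in CD9hi, where only 5.46% of cells had a Krt17 UMI. No paired analysis was possible because each group had 1 library. The Krt17-high ratios rest on 50 and 27 cells, and those at 2000 CPM of Krt17 in CD9hi on 7.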
